A study of Mus musculus with 6 samples.

Results

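Respiratory complexes II to V, with cytochrome c, are the part of the mitochondrial electron transport chain that takes electrons from succinate and ubiquinol to oxygen and makes ATP from the proton gradient. Their nuclear-encoded genes were chosen by RefSeq symbol: Sdha, Sdhb, Sdhc, Sdhd, Cycs, Cyc1, and every symbol that starts with Uqcr, Cox4i, Cox5, Cox6, Cox7, Cox8 or Atp5. The rule found 48 genes among the 23462 genes with a named probe on the array. Of these, 4 belong to complex II, 9 to complex III, 17 to complex IV and 17 to complex V, and Cycs encodes cytochrome c itself. The genes had 63 probes, of which 61 were well above background on all 6 arrays. The test could be run for 43 genes, and 13 genes had several probes.

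The samples were microglia, the resident immune cells of the brain, taken after acute ischemic stroke (AIS) with 3 control and 3 mPGC-1α samples and 1 array for each. Both groups carried a loxP-flanked PGC-1α allele together with an enhanced GFP gene (PGC-1α f/f), and the mPGC-1α mice also carried Cx3cr1-Cre, a tamoxifen-inducible Cre recombinase expressed from the microglial Cx3cr1 locus, to overexpress PGC-1α in microglia. The study's methods describe tamoxifen for days, an interval, and then transient occlusion of the middle cerebral artery with reperfusion. The labels give male mice of 10 weeks; the time from stroke to isolation is not given in the sources used here. Cells were enriched with magnetic beads against P2RY12, a microglial surface receptor, and nothing says that the 3 samples of a group came from separate animals, so p-values measure the spread between these samples, which may be technical. The comparison asks whether the genes of these complexes differed between microglia with and without PGC-1α overexpression.

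Complex II (succinate dehydrogenase) oxidizes succinate and passes its electrons to ubiquinone; complex III passes them from ubiquinol to cytochrome c, a small carrier; complex IV (cytochrome c oxidase) passes them to oxygen; and complex V (ATP synthase) uses the proton gradient to make ATP. PGC-1α is a transcriptional coactivator known for raising the expression of such genes in energy-demanding tissues, through factors such as NRF1, GABPA (NRF2), YY1 and the estrogen-related receptors (ERR). Several complex IV subunits exist as a broadly expressed form and a form known from muscle, lung or testis.

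Levels are log2 processed signals relative to the 75th percentile of each array, and differences are mPGC-1α minus control on the same log2 scale. The 75th percentile lay between 927 and 1540 signal units, and the number of arrays limits the precision. All 6 samples are labelled male, and control array 2 alone fitted that label. Xist, an RNA made by cells that silence an X chromosome, was at -5.21 on control array 2 and between -0.97 and -0.51 on the other 5 arrays, and the Y-linked Ddx3y was well above background on control array 2 and on none of these 5. Ppargc1a, the gene of PGC-1α itself, was at -1.44, -0.94 and -0.93 in control and -1.49, -1.27 and -1.54 in mPGC-1α samples, so its probe was not higher in the mPGC-1α group; whether this probe reads the transgene was not tested. Cx3cr1, a microglial gene and the locus of the Cre, was lower in the mPGC-1α samples, by a difference of -1.25 ± 0.24 (SE, adjusted p = 0.669). The defining genes of other cell types were also present: neuronal genes had a median difference of 0.84 with 11 of 12 higher, oligodendrocyte genes 0.94 with 12 of 12 higher, and astrocyte genes 0.95 with 8 of 9 higher, against 0.06 for 10 microglial genes. Endothelial and mural genes had a median of 0.14 with 8 of 10 higher, monocyte and macrophage genes -0.21 with 9 of 10 lower, and ependymal and choroid plexus genes -0.65 with 5 of 6 lower. The part of these lists in the results on the respiratory genes was not tested. In such bulk samples, fewer cells of a type and less RNA per cell cannot be told apart.

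The promoters of these genes were searched for motifs of factors known to bind such promoters, which the selection did not use. RefSeq promoter windows (build GRCm38.p6, from 250 bases before to 50 bases after the start) were matched by symbol for 36 of the 48 genes, giving 39 promoters, since some genes have several starts. Each window was searched on both strands for GCGCATG (NRF1), AAGGTCA (ERR), CCGGAAG (GABPA) and AAGATGG (YY1). An NRF1 match was found in 20.5% of the promoters of complexes II to V, against 4.80% of 21263 promoters of protein-coding genes. The shares were 33.3% and 11.6% for GABPA, 12.8% and 4.08% for ERR, and 10.3% and 6.24% for YY1. At least 1 of the 4 motifs was found for 20 of the 36 genes (55.6%) and for 26.6% of all protein-coding genes. A match is a description of the letters and not a site of binding.

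**Figure D1:**
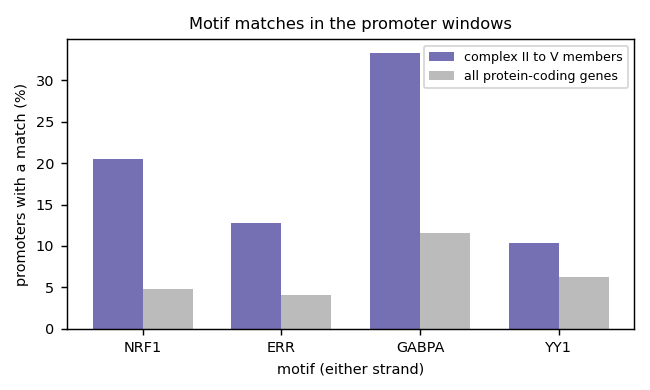
Share of promoter windows (%, vertical axis) with at least 1 match on either strand to each of 4 motifs (horizontal axis), for the 39 promoters of complex II to V genes (purple bars) and the 21263 promoters of all protein-coding genes (grey bars). The purple bar is the taller one for each motif, with 20.5% against 4.80% for NRF1 and 33.3% against 11.6% for GABPA.

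The bases before the start are shown for 1 tested gene of each complex and for cytochrome c, the gene with the most kinds of motif wholly before the start (the first in alphabetical order where several had as many). Capitals mark the motifs: NRF1 in Sdhb, GABPA in Uqcr11, NRF1 in Cycs, an NRF1 palindrome matched on both strands and then GABPA in Cox6a1, and YY1 and then GABPA in Atp5j. The windows are chr4:140961021-140961270 on the plus strand, and chr10:80406822-80407071, chr6:50566570-50566819, chr5:115348959-115349208 and chr16:84834977-84835226 on the minus strand, each written 5′ to 3′ on the strand of the gene.
Sdhb: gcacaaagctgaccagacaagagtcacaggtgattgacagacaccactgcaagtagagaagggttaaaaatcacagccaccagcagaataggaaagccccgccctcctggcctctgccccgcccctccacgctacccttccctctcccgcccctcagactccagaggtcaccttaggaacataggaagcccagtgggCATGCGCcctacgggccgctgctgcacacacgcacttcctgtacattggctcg
Uqcr11: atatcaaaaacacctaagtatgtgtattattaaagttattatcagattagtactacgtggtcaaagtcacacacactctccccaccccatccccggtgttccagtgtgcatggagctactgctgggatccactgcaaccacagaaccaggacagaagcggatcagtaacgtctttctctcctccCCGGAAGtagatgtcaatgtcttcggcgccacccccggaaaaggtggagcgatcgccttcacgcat
Cycs: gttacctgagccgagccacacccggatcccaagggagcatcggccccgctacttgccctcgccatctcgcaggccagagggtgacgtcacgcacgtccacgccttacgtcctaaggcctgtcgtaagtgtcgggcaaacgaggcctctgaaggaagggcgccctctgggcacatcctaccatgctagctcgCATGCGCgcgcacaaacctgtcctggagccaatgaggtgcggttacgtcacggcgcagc
Cox6a1: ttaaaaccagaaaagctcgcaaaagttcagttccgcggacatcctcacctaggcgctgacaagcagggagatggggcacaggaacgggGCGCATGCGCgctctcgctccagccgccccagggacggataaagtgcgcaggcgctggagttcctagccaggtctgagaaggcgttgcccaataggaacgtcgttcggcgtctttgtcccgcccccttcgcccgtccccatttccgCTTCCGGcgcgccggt
Atp5j: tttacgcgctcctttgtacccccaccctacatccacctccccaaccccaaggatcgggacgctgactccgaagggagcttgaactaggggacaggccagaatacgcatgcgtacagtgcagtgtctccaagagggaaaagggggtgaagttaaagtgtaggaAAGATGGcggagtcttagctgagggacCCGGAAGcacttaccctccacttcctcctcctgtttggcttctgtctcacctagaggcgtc

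The levels of these 5 genes come first. Cox6a1, a structural subunit of complex IV whose promoter holds the palindrome, was at 3.64, 4.55 and 4.14 in control and 3.96, 4.53 and 4.19 in mPGC-1α samples, a difference of 0.12 ± 0.25 (SE). Sdhb, the iron-sulfur subunit of complex II, was at 1.98 and 2.42 on the 2 control arrays and 2.24 and 2.56 on the 2 mPGC-1α arrays with usable spots. Uqcr11, a small subunit of complex III, was at 2.69, 3.65 and 3.21 in control and 2.68, 3.40 and 3.22 in mPGC-1α samples. The groups overlapped for each of these 3 genes, and array 1 was the lowest of its group in all of them. Atp5j, a subunit of the stalk of ATP synthase, was at 2.64 and 3.51 in control and 2.81 and 3.24 in mPGC-1α samples. Cycs was at 0.95, 1.42 and 1.22 in control and 1.07 and 1.15 in mPGC-1α samples.

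No gene of complexes II to V passed the test of a difference between the groups. By limma, with p-values adjusted over all tested probes (Benjamini-Hochberg), 0 of the 43 tested genes had an adjusted p below 0.05, as had 0% of all 18222 genes, and the smallest adjusted p was 0.758 (Atp5a1). At an unadjusted p below 0.05, 0 of the 43 genes passed, against 5.94% of all genes. With the replicate number as a block, 0 of 43 genes passed (smallest adjusted p 0.480, Cox7a2l), against 0.00549% of all genes, and at an unadjusted p 0 of 43 passed, against 9.94%. The median difference of the 43 genes was 0.037, with 24 higher and 19 lower, whereas the median of all genes was 0.088 and 61.7% of them were higher. The median of the genes turned to -0.056 after quantile normalization, -0.086 in the authors' normalized table and -0.17 without control array 1, so it has no settled sign.

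The width of the intervals sets what the arrays could have shown. Standard errors ran from 0.18 to 0.45, with a median of 0.26, against a median of 0.21 with the replicate block. The 95% interval of the difference lay within 2-fold either way for 37 of the 43 genes, against 67.5% of all genes. For Atp5a1, Uqcrq, Cox6b1, Cox6b2, Cox7a1 and Cox8b it reached beyond 2-fold. Among the 22 genes measured on all 6 arrays, the groups overlapped for all 22, while 11.2% of all genes did not overlap (7.34% higher and 3.88% lower in mPGC-1α samples). The remaining 21 tested genes had at least 1 spot that the scanner software marked as an outlier and that was left out. The median difference was 0.063 within the slide that held arrays 1 and 2 of both groups, and 0.12 over the 24 genes with usable spots on the slide that held arrays 3. The sign on that slide depended on the marked spots: with them kept, the median over all 43 genes was -0.032.

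**Figure D2:**
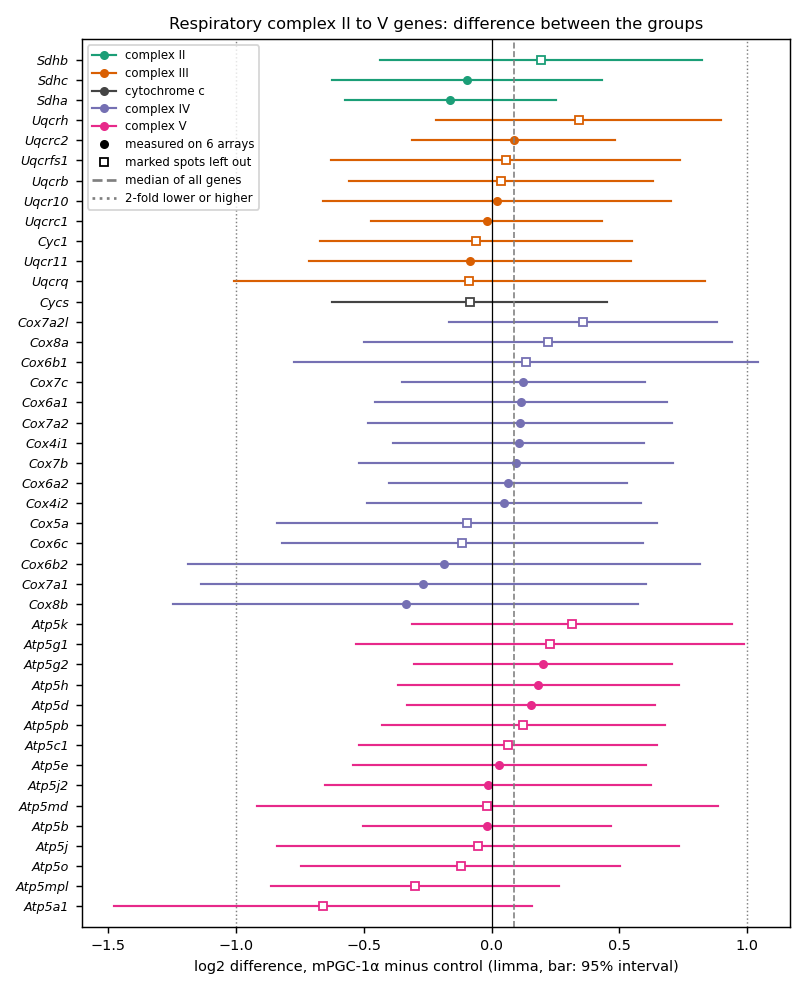
Difference between mPGC-1α and control samples (log2, horizontal axis) for each of the 43 tested genes (vertical axis), coloured by complex, with the 95% interval from limma without the replicate block as a bar. Filled circles are the 22 genes measured on 6 arrays and open squares the 21 genes with marked spots left out; the dashed line is the median of all genes (0.088) and the dotted lines are 2-fold changes. Every interval crosses 0.

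In complex II, 1 gene was higher and 2 were lower, with a median difference of -0.096. Sdha, the flavoprotein that binds succinate, was at 2.32, 2.37 and 2.56 in control and 2.20, 2.44 and 2.12 in mPGC-1α samples. The difference was -0.16 ± 0.18 (SE, adjusted p = 0.892). Sdhc, a membrane anchor, was at 1.77, 2.51 and 2.32 in control and 1.93, 2.35 and 2.03 in mPGC-1α samples, and the groups overlapped for both genes. Sdhd, the other anchor, had usable spots on 3 control arrays (2.88, 3.14 and 3.46) and on 1 mPGC-1α array (3.09) and was not tested.

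In complex III, 5 genes were higher and 4 were lower, with a median of 0.022 and a range from -0.087 (Uqcrq) to 0.34 (Uqcrh). Uqcrc1 and Uqcrc2 are the core subunits. Uqcrc1 was at 2.56, 3.07 and 2.90 in control and 2.63, 2.98 and 2.87 in mPGC-1α samples, a difference of -0.019 ± 0.20 (SE). Uqcrc2 was at 3.05, 3.35 and 3.21 in control and 3.14, 3.39 and 3.34 in mPGC-1α samples, a difference of 0.087 ± 0.18 (SE), which was the most precise of the complex. For both core subunits the 3 arrays of one group ran in the same order as those of the other. The electron carriers of the complex, the Rieske iron-sulfur protein Uqcrfs1 and cytochrome c1 (Cyc1), had 1 marked spot each. Uqcrfs1 was at -0.25, 0.34 and 0.58 in control and 0.14 and 0.42 in mPGC-1α samples. Cyc1 was at 2.61 and 3.28 in control and 2.92, 3.11 and 2.61 in mPGC-1α samples. Uqcrh, the hinge protein, was at 3.10 and 3.52 in control and 3.37, 3.94 and 3.65 in mPGC-1α samples, with an adjusted p of 0.815. With its marked spot on control array 2 kept (4.21) Uqcrh differed by 0.043, and with the replicate block by 0.20.

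In complex IV, 10 genes were higher and 5 were lower, and the median of 0.096 was the highest of the 4 complexes, though it lay within 0.008 of the median of all genes. Cox4i1, the broadly expressed form of subunit 4, was at 4.34, 5.04 and 4.68 in control and 4.67, 5.07 and 4.64 in mPGC-1α samples, a difference of 0.11 ± 0.22 (SE). Cox5a was at 2.45, 3.39 and 2.92 in control and 2.47 and 3.17 in mPGC-1α samples. Neither gene separated the groups. Cox7a2l, which is known for joining complexes III and IV, had the highest difference of all 43 genes, 0.36 ± 0.23 (SE). It was at 2.79, 3.04 and 3.18 in control and 3.15 and 3.57 in mPGC-1α samples, so the lower mPGC-1α array lay inside the control range, and the adjusted p was 0.794 without and 0.480 with the replicate block.

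Both forms of several complex IV subunits were measured above background. Cox4i2, the form known from lung, was at 1.52, 2.06 and 1.28 in control and 1.73, 1.80 and 1.47 in mPGC-1α samples. Cox6a2, a heart and muscle form, was at -0.19, -0.012 and -0.38 in control and -0.15, -0.19 and -0.052 in mPGC-1α samples. These 2 genes differed by 0.049 and 0.066 between the groups, within their spread. Cox7a1, another muscle form, was at 0.27, 1.76 and 0.74 in control and 0.16, 1.15 and 0.65 in mPGC-1α samples. Cox8b was at 0.92, 1.95 and 2.03 in control and 0.45, 1.84 and 1.60 in mPGC-1α samples. Cox6b2, a testis form, was at 0.55, 2.15 and 1.01 in control and 0.25, 1.59 and 1.30 in mPGC-1α samples. The differences of these last 3 genes were -0.27, -0.34 and -0.19, and the SD within the control group was 0.76, 0.62 and 0.82. Between samples of the same number, Cox7a1 was lower in the mPGC-1α sample in all 3 pairs (-0.10, -0.61 and -0.086), as was Cox8b (-0.47, -0.11 and -0.43), while Cox6b2 was lower in 2 of 3. Other genes of the complexes, namely Uqcrc2, Cox7c and Atp5h, were higher in all 3 pairs. The share of all genes with the same sign in all 3 pairs was not counted. With the replicate block neither Cox7a1 (adjusted p = 0.712) nor Cox8b (adjusted p = 0.573) passed. Cox8c stayed below the well-above-background call on all 6 arrays and Cox7b2 on 3 of them, so neither was tested.

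The broadly expressed partners of these forms did not separate the groups either. Cox6a1 is given above with its promoter, and Cox7a2 was at 3.48, 4.47 and 4.02 in control and 3.78, 4.32 and 4.20 in mPGC-1α samples. Cox7b was at 1.99, 3.00 and 2.35 in control and 2.23, 2.74 and 2.66 in mPGC-1α samples. Cox6b1, a subunit that faces the intermembrane space, was at 1.58 and 2.61 in control and 1.92 and 2.54 in mPGC-1α samples, and Cox8a was at 2.92 and 3.72 in control and 3.43 and 3.65 in mPGC-1α samples. The differences of these 5 genes ran from 0.096 to 0.22. Cox6b1 and Cox8a had no usable spot on either array 3, and with marked spots kept they differed by 0.040 and 0.045.

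In complex V, 8 genes were higher and 7 were lower, with a median of 0.031 and the widest range of the complexes, from -0.66 (Atp5a1) to 0.32 (Atp5k). The value of Atp5k rested on a marked spot left out on control array 2. With that spot kept Atp5k differed by -0.021, and with the replicate block by 0.18. Atp5a1 differed by -0.65 with its marked spot kept and by -0.39 with the replicate block. The catalytic part is built from Atp5a1 (alpha), Atp5b (beta) and Atp5c1 (gamma). By its brightest probe, Atp5b was at 3.40, 3.95 and 3.86 in control and 3.49, 4.01 and 3.66 in mPGC-1α samples, a difference of -0.017 ± 0.22 (SE). Atp5c1 was at 2.80, 3.44 and 3.26 in control and 3.03 and 3.43 in mPGC-1α samples, a difference of 0.064 ± 0.25 (SE). Atp5g1 and Atp5g2 encode the same subunit of the membrane ring. Atp5g1 was at 2.90, 3.96 and 3.09 in control and 3.31 and 3.79 in mPGC-1α samples. Atp5g2 was at 3.06, 3.82 and 3.36 in control and 3.40, 3.74 and 3.70 in mPGC-1α samples, a difference of 0.20 ± 0.22 (SE, adjusted p = 0.888). The groups overlapped for Atp5b, Atp5c1, Atp5g1 and Atp5g2 alike. Atp5g3 and Atp5l had too few unmarked spots to be tested.

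A few probes of complex V and complex II genes behaved unlike the other probes of the same gene. Of all 56 tested probes of the genes, 2 had an unadjusted p below 0.05 (second probes of Atp5b and Sdha), against 7.15% of all probes, and 0 had an adjusted p below 0.05 without or with the replicate block, against 0% and 0.00245% of all probes. A second probe of Atp5b (A_52_P553841) was at 2.71, 0.53 and 3.07 in control and 0.46, 0.32 and 0.53 in mPGC-1α samples. Control array 2 lay with the mPGC-1α arrays there, and control arrays 1 and 3 lay far above. The mPGC-1α samples were lower by a difference of -1.67 ± 0.55 (SE, adjusted p = 0.669), and with the replicate block the adjusted p was 0.107. This was 1 of 29 tested probes on 6 arrays whose groups did not overlap with the mPGC-1α group lower, against 5.15% of all probes. The brightest Atp5b probe differed by -0.017, so the probes of this gene disagree. The last Atp5b probe (A_66_P125349) differed by -0.34 with its marked spot on control array 3 left out. With that spot kept it was at 3.44, 3.38 and 4.04 in control and 2.70, 3.32 and 3.20 in mPGC-1α samples, a difference of -0.55 ± 0.24 (SE, adjusted p = 0.676), and it then separated the groups as well. With the 75th percentile taken over unmarked probes and the replicate block, a setting chosen after seeing the data, the adjusted p of A_52_P553841 was 3.74e-05, and 4.22% of all probes passed.

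The brightest probe of Atp5a1 (A_66_P140213) had a like course, at 3.63, 2.67 and 3.97 in control and 2.67 and 2.86 in mPGC-1α samples (2.79 on the remaining mPGC-1α array with its marked spot kept), a difference of -0.66 ± 0.36 (SE, adjusted p = 0.758). The other Atp5a1 probe differed by -0.12, with no usable spot on either array 3. With its marked spots kept, that probe differed by -0.14. A second probe of Sdha (A_52_P109503) was at 2.45, 1.38 and 2.94 in control and 1.17, 1.53 and 1.51 in mPGC-1α samples, a difference of -0.85 ± 0.35 (SE, adjusted p = 0.686), while the brightest Sdha probe differed by -0.16. On all 3 probes control array 2, the array whose Xist and Ddx3y levels differ from the rest, lay outside the other 2 control arrays and near the mPGC-1α arrays. Without control array 2 these 3 probes, and no other of the 44 member probes that could be tested, had an adjusted p below 0.05: the differences were -2.46 ± 0.19 (SE, adjusted p = 0.00063) for Atp5b, -1.04 ± 0.20 (SE, adjusted p = 0.033) for Atp5a1 and -1.29 ± 0.21 (SE, adjusted p = 0.012) for Sdha. In that fit 5.42% of all probes passed, nearly all of them lower in mPGC-1α samples (5.1%), against 3 of 44 member probes (6.82%). On these 3 probes control array 2 lay apart from the other control arrays and near the mPGC-1α arrays. Leaving it out therefore widens their difference and narrows their spread, so this fit adds no separate support for them. Which transcripts or bases these probes read that the other probes of the gene do not was not tested.

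**Figure D3:**
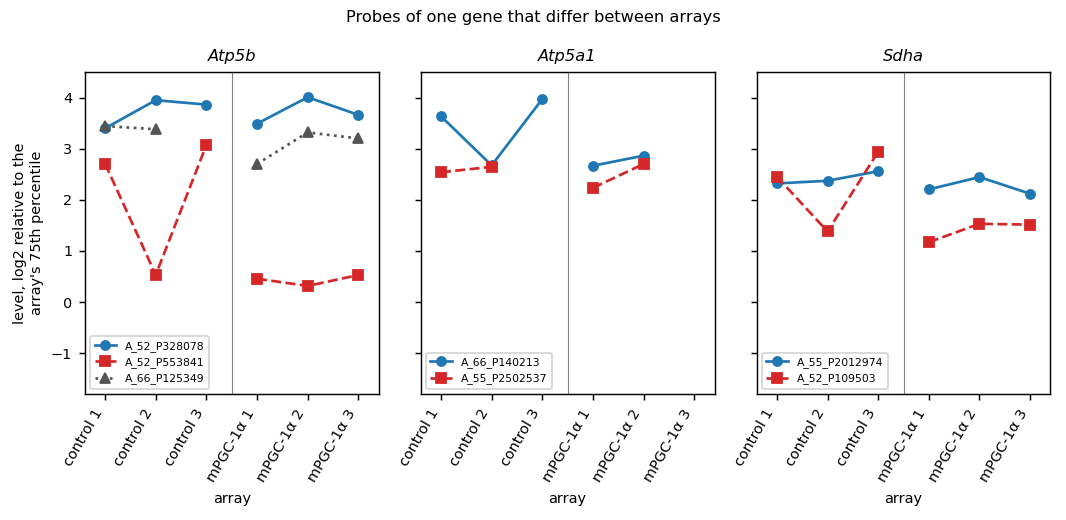
Level of each tested probe of Atp5b, Atp5a1 and Sdha (log2 relative to the array's 75th percentile, vertical axis) on the 3 control and 3 mPGC-1α arrays (horizontal axis), 1 line per probe; marked spots are left out, and only the course of a line, not its height, can be compared between probes. On A_52_P553841, A_66_P140213 and A_52_P109503 control arrays 1 and 3 stand above control array 2 and the mPGC-1α arrays. The brightest probes of Atp5b and Sdha show no such step. The other Atp5a1 probe shows none on arrays 1 and 2 and has no usable spot on either array 3. A_66_P125349 has no usable spot on control array 3.

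After scaling, the arrays of each group stood in an order that most of these genes shared. Before scaling, the median signal of the genes' probes was 9989 on control array 1 and 9425 on control array 2. The 75th percentiles of these arrays were 1540 and 927, so in control array 1 stood below array 2 only after scaling. On mPGC-1α arrays 1 and 2 the unscaled medians were 6622 and 8788. The shares of all genes given here were not matched for brightness. Array 1 was the lowest array of its group in both groups for 18 of the 22 genes measured on all arrays (81.8%), against 19% of all genes. After quantile normalization the shares were 81.8% and 32.9%, with normexp background correction 86.4% and 32.4%, with marked spots kept 81.4% and 19.6%, and in the values normalized by the authors 72.1% and 20%. Array 2 lay above array 1 in both groups for 39 of 41 genes (95.1%), against 43.8% of all genes. Array 2 was the highest of its group in both groups for 19 of 22 genes (86.4%, against 29.3% of all genes). After quantile normalization this fell to 9.09%, against 11.1%, and with normexp background correction and quantile normalization to 4.55%, against 11%. With marked spots kept it was 74.4%, against 28.6%, and in the values normalized by the authors 58.1%, against 22.8%. The place of array 1 at the bottom held under these 5 settings, with a background share that rose under the quantile normalization run here. The place of array 2 at the top held with marked spots kept and in the authors' values. It did not hold after the quantile normalization run here, which left marked spots out. The part of the marked spots in this was not tested.

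Relative to each gene's own mean over the 6 arrays, the median of the 22 genes was -0.45, 0.39 and -0.043 on control arrays 1 to 3, and -0.21, 0.27 and 0.027 on mPGC-1α arrays 1 to 3. The median of all genes was -0.19, 0.17 and -0.11, and 0.055, 0.085 and -0.022, on the same arrays. Taken against all genes, the 22 genes were lower by similar amounts on both arrays 1, with -0.26 in control and -0.27 in mPGC-1α samples. They stood higher on both arrays 2, with 0.22 and 0.19. After quantile normalization these 4 values were -0.080, -0.28, 0.23 and 0.053. Complex IV had the widest swing, from -0.51 to 0.42 in the control group, and complex II, with 2 genes, the narrowest, from -0.20 to 0.20.

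**Figure D4:**
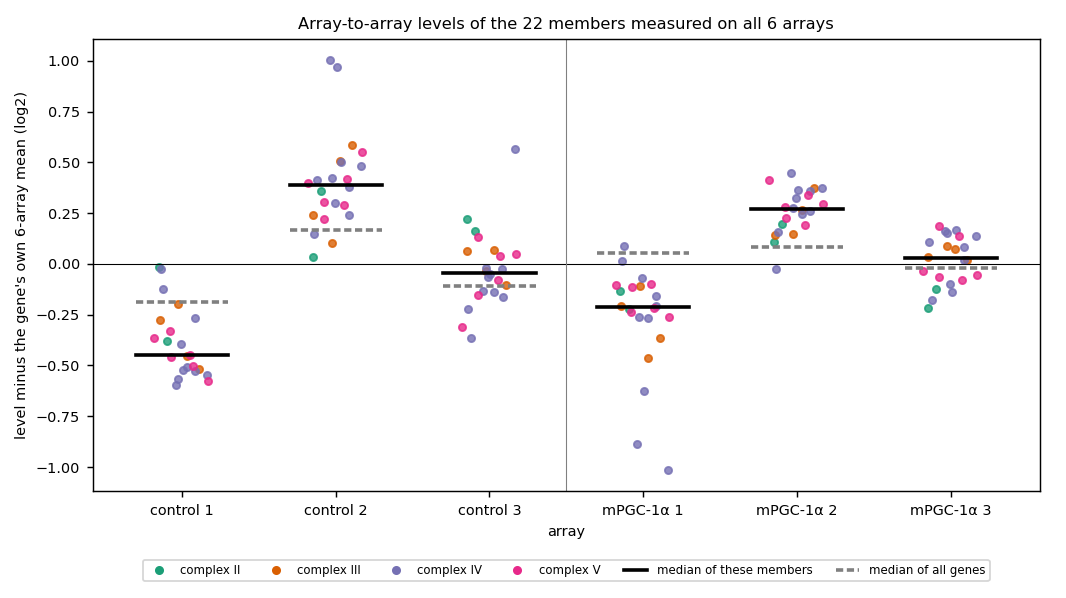
Level of each of the 22 genes measured on all 6 arrays, as the log2 difference from the gene's own mean (vertical axis), for each control and mPGC-1α array (horizontal axis), 1 point per gene coloured by complex; points are spread sideways for legibility. Black bars are the median of these genes and grey dashed bars the median of all genes. The black bar lies lowest on array 1 and highest on array 2 in both groups.

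The difference between the groups changed with the pair of arrays compared, and arrays with the same replicate number varied together over all genes. In pair 1 the genes were higher in the mPGC-1α sample for 34 of 43 (79.1%, against 67.5% of all genes), with a median of 0.21. In pair 2 they were higher for 11 of 41 (26.8%, against 42.1%), with a median of -0.11. In pair 3 they were higher for 15 of 24 (62.5%, against 59.8%), with a median of 0.12. With marked spots kept, pair 3 turned: 21 of 43 were higher (48.8%), with a median of -0.032. The medians of all genes were 0.23, -0.068 and 0.10. The cell type markers differed among themselves. Relative to each gene's own mean, the median of the neuronal genes was at -0.57, -0.030 and -0.69 on the control arrays and 0.50, 0.55 and -0.19 on the mPGC-1α arrays, and that of the oligodendrocyte genes at -0.74, 0.10 and -1.40, and 1.13, 0.28 and 0.25. On the 2 arrays 1, where the respiratory genes were lowest, these 2 lists had opposite signs, as had the microglial genes (-0.22 and 0.12). On this scale other lists were negative on both arrays 1, as the respiratory genes were. Endothelial and mural genes were at -0.27 and -0.083, and astrocyte genes at -0.63 and -0.043. Monocyte and macrophage genes were at -0.14 and -0.62, and ependymal and choroid plexus genes at -0.053 and -1.06. For each of these 4 lists array 1 was, on this scale, the lowest of its group in both groups. Taken against all genes, endothelial and mural genes were at -0.086 and -0.14, and astrocyte genes at -0.44 and -0.098. Monocyte and macrophage genes were then at 0.048 and -0.68, and ependymal and choroid plexus genes at 0.14 and -1.12. These last 2 lists thus lay above all genes on control array 1. The part of the 4 lists in the order of the arrays was not tested.

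Other genes of the pathway came from lists of complex I, assembly factors and regulators. Of the 38 subunits of complex I, which feeds electrons from NADH into the chain, 36 were tested, 0 passed, and 26 were higher and 10 lower, with a median of 0.070. Their median by array was -0.40, 0.30 and 0.021 in control and -0.22, 0.27 and 0.088 in mPGC-1α samples, close to the values of complexes II to V on each array. Of 37 assembly factors of complexes II to V, 35 were tested and 0 passed the adjusted threshold, with 24 higher and 11 lower and a median of 0.11. At an unadjusted p below 0.05, 2 of the 35 passed, against 5.94% of all genes, and both are named here after their values were seen. Sdhaf2, which attaches the flavin to Sdha, was at -0.15, -0.35 and 0.0050 in control and -1.17, -0.91 and -0.31 in mPGC-1α samples, a difference of -0.63 ± 0.27 (SE, adjusted p = 0.686). Cox16, a factor for complex IV, was at -0.095 and 0.34 in control and 0.77, 0.79 and 0.60 in mPGC-1α samples, a difference of 0.60 ± 0.24 (SE, adjusted p = 0.686). Of 13 regulators of mitochondrial genes, 13 were tested and 0 passed, with 6 higher and 7 lower and a median of -0.17. The mitochondrially encoded subunits and Cox5b were not analysed here.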

How the data were processed

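Samples were grouped by the genotype and replicate number in their labels. The labels name Cy3 as the dye and the labelling protocol Cy5; the files hold 1 green channel. The deposited scanner files give intensity values per spot from Agilent Feature Extraction 11.5.1.1, in which the authors' processed signal is background-subtracted and not scaled between arrays. The deposited value table gives log2 values that the authors normalized in GeneSpring, by a method not given in the sources used here. Each column correlated with its own array at 0.999 or more, and column medians lay between 7.78 and 7.79. The columns had nearly the same quantiles (SD 0.0029), as quantile-normalized columns have. This table served as an alternative. RefSeq symbols were assigned to 59.7% of the 56605 non-control probes.

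The processed signal was log2-transformed and the 75th percentile of all non-control spots of each array subtracted; spots marked as outliers were then left out and spots of one probe averaged. Marked spots were bright (median signal from 9759 to 15147, against 135 to 230 over all spots) and numbered 549, 1094 and 3010 on the control and 593, 672 and 4931 on the mPGC-1α arrays, so a percentile taken without them depends on how many were marked and was kept as an alternative. Probes with at least 2 values in each group, and well above background on every measured array of at least 1 group, were tested (40745, of which 3750 lacked a marked value) with limma 3.58.1 in R 4.3.3, with an intensity trend and Benjamini-Hochberg adjustment at 0.05. The brightest tested probe stood for each gene. The fit was tested on simulated data.

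Arrays 1 and 2 of both groups share a slide and arrays 3 another. Deviations from the group means correlated at 0.25, 0.22 and 0.17 between samples of the same number and at -0.34 to 0.035 between others. Same-numbered samples were therefore treated as pairs in a further fit with the replicate number as a block. Unless the block is named, differences, standard errors, intervals and p-values come from the main fit, which ignores the pairing. The blocked fit is given beside it for some results. The other alternatives were quantile normalization, normexp background correction (offset 50, on the median signals), other filters, marked spots kept, the slide as a block, all probes of a gene averaged, no intensity trend, and each sample left out.

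Values in every array are given for core subunits, isoform families with a tissue-restricted form, members with an adjusted p below 0.05, and members whose probes differ by over 1 on the log2 scale. The rule also asked, per complex, for the extreme members whose groups do not overlap, and no tested gene met this by its brightest probe (untested Cox7b2, well above background on 3 arrays, did); the genes with the highest and lowest differences were named after their values were seen, and those with printed promoters by their motifs. The members and lists were chosen with earlier results of these data known.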

Additional observations from a re-analysis of the deposited data

How the results depend on the processing

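Across 16 planned settings and 4 chosen after seeing the data, the number of genes of complexes II to V past the adjusted threshold was 0, except without control array 2. There it was 1 of 37 tested genes (Atp5a1), against 3.4% of all genes. Leaving out each sample in turn thus gave a number from 0 to 1. With the replicate block it was 0 of 43, with a median difference of 0.066 against 0.037 without it, and the block changed no call of these genes. The whole table was less settled: 2130 probes passed without control array 2, and 1720 with the percentile over unmarked probes and the replicate block, against 0 otherwise or 1 with the other block fits. The median difference of the genes ran from -0.086 to 0.12 over the settings that kept all samples, below the median of all genes in each of them, and from -0.17 to 0.23 when 1 sample was left out, below it in 4 of 6. The number of arrays limits what could be detected: 21 of 43 genes lacked at least 1 value, and untested genes include bright ones. Within-slide values on the slide of arrays 3 rest on 1 array of each group.

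Of 26 named genes, 4 (Atp5a1, Atp5g2, Cox7a2l and Sdha) kept the sign of their difference in every setting that tested them, and the other 22, which were not called in any setting, changed sign in 64 of their 415 values; the cause was not tested. After quantile normalization the difference was -0.18 (Atp5c1), -0.035 (Atp5g1), -0.017 (Cox4i1) and -0.029 (Uqcrfs1). With normexp and quantile normalization the difference was -0.11 (Atp5c1), -0.0069 (Atp5g1), -0.00043 (Cox4i1), -0.038 (Cox7a2), -0.0085 (Cox8a) and -0.048 (Sdhb). In the authors' normalized table the difference was -0.086 (Atp5c1), -0.039 (Atp5g1), -0.037 (Cox4i1), -0.020 (Cox4i2), -0.014 (Cox6a1), -0.033 (Cox6b1), -0.016 (Cox7a2), -0.073 (Cox8a) and -0.046 (Uqcrc2). With only probes well above background on all 6 arrays the difference was -0.12 (Atp5g1). With marked spots kept the difference was 0.034 (Cox5a). With the slide as a block the difference was 0.073 (Cyc1). With the replicate block the difference was 0.073 (Cyc1). With the probes of a gene averaged the difference was -0.024 (Atp5g1). With the percentile over unmarked probes the difference was 0.078 (Atp5b), 0.10 (Cyc1), 0.076 (Uqcrc1) and -0.0027 (Uqcrfs1). With that percentile and the replicate block the difference was 0.078 (Atp5b), 0.084 (Cyc1) and 0.076 (Uqcrc1). With the replicate block and marked spots kept the difference was 0.034 (Cox5a). With the replicate block and quantile normalization the difference was -0.065 (Atp5c1), -0.075 (Atp5g1) and -0.017 (Cox4i1). When 1 sample was left out, the lowest and highest differences were -0.19 to 0.097 (Atp5b), -0.12 to 0.20 (Atp5c1), -0.26 to 0.55 (Atp5g1), -0.065 to 0.28 (Cox4i1), -0.12 to 0.27 (Cox4i2), -0.33 to 0.14 (Cox5a), -0.12 to 0.34 (Cox6a1), -0.029 to 0.16 (Cox6a2), -0.53 to 0.27 (Cox6b2), -0.59 to 0.15 (Cox7a1), -0.15 to 0.35 (Cox7a2), -0.13 to 0.37 (Cox7b), -0.69 to 0.088 (Cox8b), -0.21 to 0.025 (Cycs), -0.030 to 0.31 (Sdhb), -0.31 to 0.059 (Sdhc), -0.16 to 0.097 (Uqcrc1), -0.18 to 0.23 (Uqcrfs1) and -0.17 to 0.073 (Cyc1).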
